A study of Mus musculus with 59 samples.

Results

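The 10 genes described here were Pou5f1, Nanog, Sox2, Klf4, Klf5, Esrrb, Zfp42, Tfcp2l1, Sall4 and Fgf4. They were chosen by name as genes of the pluripotency network, with earlier results of these data known. All 10 were found among the 24421 genes of the expression table. The embryos were mouse clones from somatic cell nuclear transfer (SCNT), where a body cell's nucleus is moved into an egg whose own chromosomes were removed. The groups were TSA-treated late 2-cell embryos (TSA is trichostatin A) and untreated embryos at the 1-cell, early 2-cell and late 2-cell stages, with 5 poly(A) RNA libraries listed for each group. All embryos carried the strain label BDF1, and the labels of the chromatin libraries name cumulus cells as the donor cells. TSA inhibits histone deacetylases; no source used here gives its dose or duration. The 1-cell embryos were collected 13 to 14 h after activation, the early 2-cell embryos at 20 to 21 h, and the late 2-cell embryos of both kinds at 33 to 34 h. The zona and polar bodies had been removed, and how many embryos went into a library is not given in the sources used.

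Pluripotency, the ability to form every tissue of the body, is held in the inner cell mass of the mouse blastocyst and in embryonic stem cells by a network of transcription factors that bind each other's genes. OCT4 (encoded by Pou5f1), SOX2 and NANOG form its core, and KLF4, KLF5, ESRRB and TFCP2L1 sustain the naive state, the state of the early epiblast. The 2-cell stage comes earlier, when the mouse embryo replaces RNA stored in the egg with RNA from its own genome, and cloned embryos often fail to make this switch fully.

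The table holds 1 value per gene and group, deposited by the authors as log2(FPKM + 1), where FPKM is the number of fragments divided by transcript length and by the mapped total. The differences below therefore carry neither error nor test. Depth is unknown, and a value of 0 means only that a gene was listed at 0. In such bulk samples, fewer cells with a transcript and less transcript per cell cannot be told apart. Differences are on the log2(FPKM + 1) scale, later stage minus earlier stage or TSA-treated minus untreated, and were counted at 2-fold, a difference of 1. Genes were kept where they reached 1 FPKM in a column compared, or in any untreated column for comparisons among the untreated stages. The oocyte gene Bmp15 had 1546, 1075 and 392.9 FPKM at the 1-cell, early 2-cell and late 2-cell stages. The 2-cell gene Zfp352 had 6.38, 25.95 and 129 FPKM. Other markers ran the other way, such as the oocyte gene Zp3 at 53.0, 27.9 and 101 FPKM. The 2-cell gene Tcstv1 had 139, 203 and 36.8 FPKM. Between late 2-cell and 1-cell embryos, 9 of 14 oocyte markers kept were counted lower and 1 higher. Of 12 markers of the 2-cell stage kept, 8 were counted higher and 2 lower. The shares of all genes were 45.2% higher and 13.6% lower. Among genes of general use, Actb stood between 129 and 225 FPKM in the 4 columns, whereas Gapdh stood between 0.0282 and 0.908 FPKM.

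The genes lie on 10 different chromosomes of the mouse build GRCm38.p6. By RefSeq, Sall4 spans 168748332 to 168767201 of chromosome 2, Fgf4 spans 144861386 to 144865245 of chromosome 7, Zfp42 spans 43295067 to 43307009 of chromosome 8, and Klf4 spans 55527137 to 55532475 of chromosome 4. Esrrb spans 86361117 to 86521628 of chromosome 12, Klf5 spans 99298691 to 99313412 of chromosome 14, and Tfcp2l1 spans 118627923 to 118685168 of chromosome 1. Pou5f1 spans 35506032 to 35510777 of chromosome 17, Nanog spans 122707489 to 122714633 of chromosome 6, and Sox2 spans 34649995 to 34652461 of chromosome 3. Pou5f1 has 7 pseudogene copies in RefSeq, Nanog 2 and Zfp42 1, so reads could be split between near-identical copies and these values are uncertain. Of these copies, 1 was in the table, Pou5f1-rs4, at 0.132 FPKM or less in each column. Sox2 lies within Sox2ot, a long noncoding RNA gene, which had 0.112, 0.163 and 0 FPKM at the 3 untreated stages.

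Sequence upstream of the annotated starts is shown for Fgf4, Zfp42, Klf4 and Esrrb, the 4 genes with the largest 2-fold differences among those with an entry in RefSeq's promoter set for GRCm38.p6. The 250 bases before each start are written 5′ to 3′ on the strand of the gene, and capitals mark matches on either strand to 7 motifs. Those of the network's own factors were ATGCAAAT for the octamer that POU factors bind, ACAATG for SOX factors, TCAAGGTCA for ESRR receptors and GGGTGTGG for KLF factors. The motifs of general promoters were GGGCGG for the GC box, the sequence CCAAT known by its own letters, and TATAAA for the TATA box.
Fgf4 (chr7:144861136-144861385, plus strand): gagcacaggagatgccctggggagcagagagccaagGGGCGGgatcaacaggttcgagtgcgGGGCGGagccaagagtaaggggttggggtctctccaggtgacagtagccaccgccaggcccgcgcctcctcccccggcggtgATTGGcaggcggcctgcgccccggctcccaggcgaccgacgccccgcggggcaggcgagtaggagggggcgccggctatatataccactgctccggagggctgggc
Zfp42 (chr8:43307010-43307259, minus strand): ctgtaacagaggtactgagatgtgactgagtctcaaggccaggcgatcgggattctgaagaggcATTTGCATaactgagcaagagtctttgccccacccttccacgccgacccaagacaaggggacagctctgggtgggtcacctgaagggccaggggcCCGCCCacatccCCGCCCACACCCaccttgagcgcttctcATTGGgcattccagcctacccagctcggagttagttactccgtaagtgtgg
Klf4 (chr4:55532476-55532725, minus strand): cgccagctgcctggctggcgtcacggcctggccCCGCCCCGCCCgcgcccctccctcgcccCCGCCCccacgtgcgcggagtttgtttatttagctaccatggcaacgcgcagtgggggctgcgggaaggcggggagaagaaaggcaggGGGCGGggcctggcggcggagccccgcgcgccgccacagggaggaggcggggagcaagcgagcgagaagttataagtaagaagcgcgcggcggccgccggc
Esrrb (chr12:86360867-86361116, plus strand): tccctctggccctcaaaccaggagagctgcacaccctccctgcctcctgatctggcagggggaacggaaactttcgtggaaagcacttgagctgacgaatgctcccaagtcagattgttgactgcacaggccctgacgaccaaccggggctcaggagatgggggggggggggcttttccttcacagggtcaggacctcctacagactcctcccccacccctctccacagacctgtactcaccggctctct
The Zfp42 sequence held an octamer match at -186 to -179 from the start and a KLF match at -75 to -68 that overlaps a GC box at -79 to -74. Of all 32851 mouse promoters of the same set, searched over 250 bases before and 50 after the start, 1.74% held the octamer and 3.56% the KLF motif. Klf4 held 4 GC boxes, of which those at -217 to -212 and -212 to -207 share a base. Fgf4 held GC boxes at -214 to -209 and -188 to -183 and a CCAAT match on the other strand at -106 to -102. GC boxes stood in 35.7% and CCAAT in 37.4% of all promoters, so these matches are common. The 250 bases before this Esrrb start held no match, and a SOX match lay after it at 32 to 37; 12.6% of all promoters held that motif. Across all 11 promoters of the 8 member genes in the set, no ESRR match was found, and 0.423% of all promoters held one. A TATA match occurred in the Tfcp2l1 promoter at -28 to -23 from the start in the promoter set, and 13.6% of all promoters held one. That start lies slightly downstream of the Tfcp2l1 gene start given above. The median GC content was 60% for these 11 promoters and 52.7% for all promoters. A match to letters is a description and shows no binding.

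**Figure D1:**
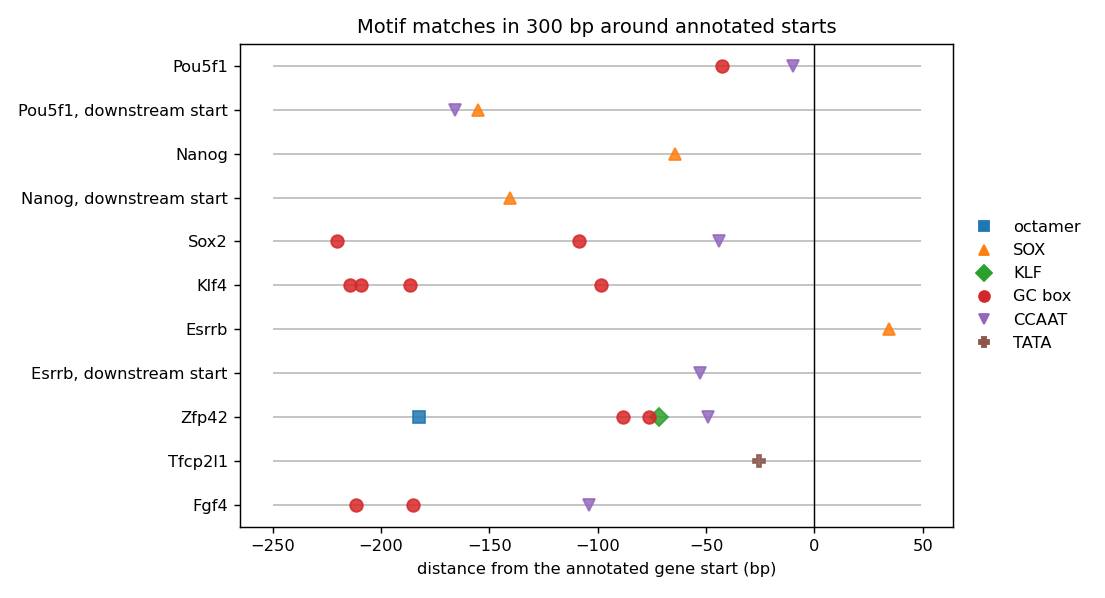
Positions of motif matches in the 11 annotated promoters of 8 pluripotency genes; the horizontal axis is distance from the annotated start in bp and each symbol is the middle of a match on either strand. The only octamer and KLF matches are in the Zfp42 promoter, and Klf4 has 4 GC boxes.

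Sall4 was by far the most abundant of these transcripts, and most of the network was low until the late 2-cell stage. Sall4, a zinc-finger factor that works with OCT4 and is needed in the early embryo, had 178 FPKM at the 1-cell stage, 152 FPKM at the early 2-cell stage and 76.2 FPKM at the late 2-cell stage. It made up 95.4%, 94.7% and 63.0% of the summed FPKM of the 10 genes at those stages. At the 1-cell stage 98.1% of all genes in the table were lower than Sall4, and at the untreated late 2-cell stage 94.3% were. The other 9 genes together summed to 8.54 FPKM at the 1-cell stage, 8.46 at the early 2-cell stage and 44.8 at the late 2-cell stage. Members at 1 FPKM or more numbered 4 at the 1-cell stage, 4 at the early 2-cell stage and 8 at the late 2-cell stage, beside 38.6%, 38.8% and 50.02% of all genes.

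The core factors had low values at every stage. Those of Pou5f1 and Nanog are uncertain, because how reads shared with their pseudogene copies were counted is not known. Gapdh, a gene of general use, also stood under 1 FPKM in each column, so a low value need not mean little transcript. Pou5f1 had 2.20 FPKM at the 1-cell stage, 1.301 FPKM at the early 2-cell stage and 2.18 FPKM at the late 2-cell stage. Nanog had 0.111, 0.0239 and 1.10 FPKM at the same stages, so the late 2-cell value alone passed 1 FPKM. Sox2 had 0.276 and 0.0487 FPKM at the 1-cell and early 2-cell stages and was listed at 0 in untreated late 2-cell embryos. Sox2 thus stayed under 1 FPKM in each column, while Pou5f1 stayed above it.

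Both Krüppel-like factors were higher at the late 2-cell stage than before it. KLF4 and KLF5 are zinc-finger activators that overlap in function in embryonic stem cells. Klf4 had 3.26 FPKM at the 1-cell stage, 4.88 FPKM at the early 2-cell stage and 19.4 FPKM at the late 2-cell stage. Klf5 had 0.0520, 0.280 and 4.00 FPKM at those stages. Klf4 came next after Sall4 in each of these columns, while Klf5 was above Fgf4 alone at the 1-cell stage and above 5 of the other genes at the late 2-cell stage.

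Among the remaining naive factors, 2 were highest late and 1 was highest early. Zfp42 encodes REX1, a zinc-finger protein widely used as a marker of naive cells, and had 0.0947, 0.160 and 9.44 FPKM at the 1-cell, early 2-cell and late 2-cell stages. Tfcp2l1, a CP2-family factor that acts downstream of the cytokine LIF in stem cells, had 0.890, 1.02 and 3.01 FPKM. Esrrb, an orphan nuclear receptor, ran the other way with 1.66, 0.443 and 0.177 FPKM. Fgf4, a secreted growth factor that the early epiblast uses to signal to primitive endoderm, was listed at 0 in 1-cell embryos and had 0.306 FPKM at the early and 5.54 FPKM at the late 2-cell stage.

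**Figure D2:**
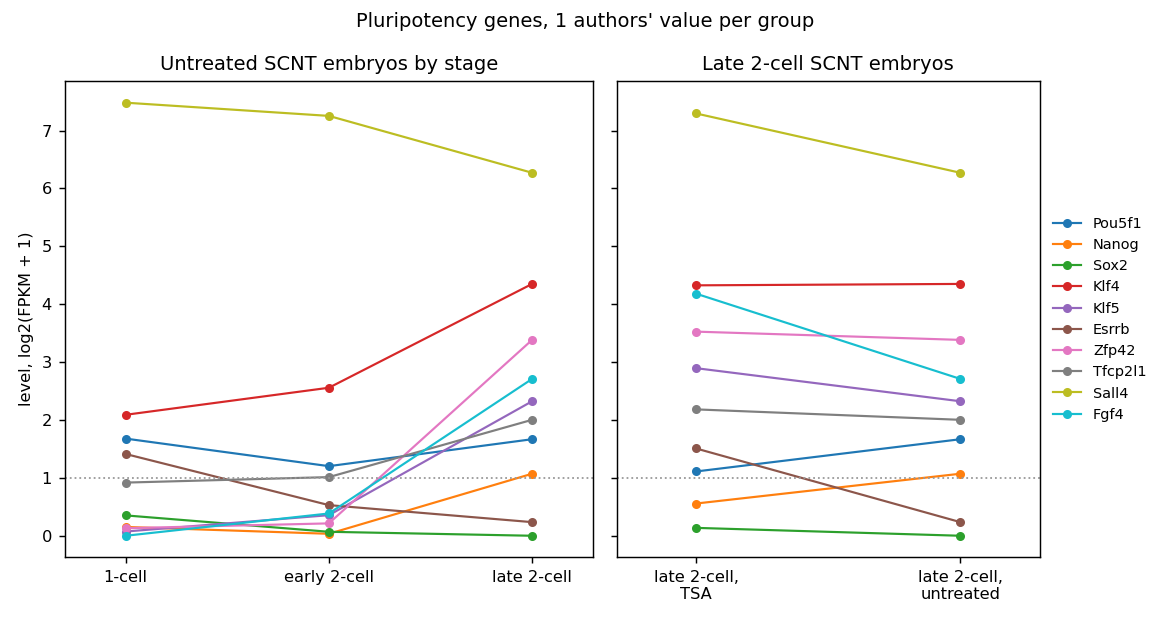
Level of each pluripotency gene as log2(FPKM + 1), with the 3 untreated stages on the left and TSA-treated beside untreated late 2-cell embryos on the right; each point is the authors' value for a group and the dotted line is 1 FPKM. Sall4 lies above all others throughout, and Klf4, Klf5, Zfp42 and Fgf4 are highest in the late 2-cell columns.

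Between the early 2-cell and 1-cell stages no member reached a 2-fold difference as deposited. Of the 9 members kept, 0 were counted higher and 0 lower; of all 13012 genes kept, 2.89% were counted higher and 5.53% lower. The largest difference was that of Esrrb, -0.88, followed by Pou5f1 at -0.48 and Klf4 at 0.47. The median was 0.08 for the members and -0.03 for all genes. The scale understates the change of genes near or under 1 FPKM, among them Esrrb, Nanog, Klf5, Zfp42 and Fgf4. With a pseudocount of 0.1 Esrrb was counted lower at -1.70, and Klf5 and Fgf4 higher at 1.32 and 2.02. After quantile normalization Esrrb was counted lower at -1.08.

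Between the late and early 2-cell stages, Zfp42, Fgf4, Klf5, Klf4 and Nanog were counted higher at the late stage, and none of the 9 kept was counted lower. Of these, Zfp42, Fgf4, Klf5 and Nanog were under 1 FPKM at both earlier stages. They were kept only through the late column, so they could not be counted lower. Zfp42 differed by 3.17, Fgf4 by 2.32, Klf5 by 1.97, Klf4 by 1.79 and Nanog by 1.04. These 5 of 9 stand beside 47.1% of all 13012 genes counted higher and 10.8% counted lower, so the members' share was near the background. The median difference was 1.04 for the members and 0.89 for all genes. That median of all genes moved to 0.44 when the columns were rescaled by the median of ratios and to 0.01 after quantile normalization. Relative to the median of all genes as deposited, Zfp42 was higher by 2.28, Fgf4 by 1.44, Klf5 by 1.08 and Klf4 by 0.90. Nanog was only 0.15 above it, and with median-ratio scaling its own difference was 0.87. After quantile normalization the difference of Klf4 was 0.75, under 2-fold, and 3 members were counted higher, beside 26.3% of all genes.

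Sall4 and Esrrb differed from the bulk of genes in the opposite direction. Sall4 was lower in late than in early 2-cell embryos by a difference of -0.98, just short of 2-fold, and passed 2-fold with both rescalings, at -1.59 with median-ratio scaling and -1.35 with quantile normalization. Esrrb had a difference of -0.29. Relative to the median of all genes as deposited, Sall4 stood at -1.87 and Esrrb at -1.18. Tfcp2l1 at 0.99 also stood just short of 2-fold; its difference was -0.03 after quantile normalization. Pou5f1 had a difference of 0.47, which turned to -0.56 after quantile normalization.

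Over the whole interval, late 2-cell against 1-cell embryos, 5 of 9 members were counted higher and 2 lower, beside 45.2% and 13.6% of all genes. The higher genes were Zfp42 with a difference of 3.25, Klf4 with 2.26, Klf5 with 2.25, Tfcp2l1 with 1.08, and Fgf4, which was listed at 0 in 1-cell embryos. The lower genes were Sall4 with -1.21 and Esrrb with -1.18. Zfp42, Klf5 and Fgf4 were kept only through the late column and Esrrb only through the 1-cell column, so the filter fixed their directions. Tfcp2l1 was no longer counted with either rescaling, at 0.78 with median-ratio scaling and 0.05 after quantile normalization. Nanog differed by 0.92, and Pou5f1 by -0.01, which became -1.05 after quantile normalization. The stage comparisons share columns, so they are not independent of each other.

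TSA-treated late 2-cell embryos had more Fgf4, Esrrb and Sall4 than untreated ones, while Zfp42, Tfcp2l1 and Klf4 were close to equal and Pou5f1 and Nanog were somewhat lower. Of the 9 members kept, 3 were counted higher and 0 lower, beside 2.51% of all 12756 genes counted higher and 4.08% counted lower. Esrrb was kept only through the TSA column and Nanog only through the untreated column, so the filter fixed the direction of each. The members were chosen with earlier results of these data known, so these shares are no test of enrichment. The median difference was 0.18 for the members and -0.08 for all genes, and 6 of 9 members were above 0, as were 43.3% of all genes. The median of all genes moved from -0.08 as deposited to 0.05 with median-ratio scaling and to -0.01 with quantile normalization.

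Fgf4 had 17.1 FPKM in TSA-treated late 2-cell embryos and 5.54 FPKM in untreated ones, a 3.09-fold ratio of FPKM and a difference of 1.47. It ranked 101 from the top among the 12756 genes kept. Among the members, Sall4 and Klf4 alone were higher than Fgf4 in TSA-treated embryos, and Sall4, Klf4 and Zfp42 were higher in untreated ones. The difference stayed between 1.07 and 1.61 under the other pseudocounts and scalings tried.

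Esrrb had 1.84 FPKM in TSA-treated embryos and 0.177 FPKM in untreated late 2-cell embryos, a difference of 1.27 that ranked 158 from the top. The ratio of FPKM was 10.4, but it divides by a value well under 1 FPKM, and the difference was 0.40 with a pseudocount of 5. The TSA-treated level as deposited lay close to the 1.66 FPKM of 1-cell embryos. Relative to the median of all genes in that comparison, Esrrb stood at -0.66.

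Sall4 had 156 FPKM in TSA-treated embryos and 76.2 FPKM in untreated late 2-cell embryos, a 2.05-fold ratio and a difference of 1.02 that ranked 303 from the top. It stood just inside the 2-fold threshold and was 0.99 with a pseudocount of 5. The TSA-treated level as deposited was also near the 152 FPKM of early 2-cell embryos. Relative to the median of all genes in that comparison, Sall4 stood at -0.80. Sall4 made up 72.1% of the summed FPKM of the 10 genes with TSA and 63.0% without.

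The other naive factors differed by less than 2-fold. Klf5 had 6.44 FPKM with TSA and 4.00 FPKM without it, for a difference of 0.57, the member next outside the threshold. Tfcp2l1 had 3.54 FPKM with TSA and 3.01 FPKM without, and Zfp42 had 10.5 FPKM with TSA and 9.44 FPKM without. These are differences of 0.18 and 0.14. Klf4 had 19.1 FPKM with TSA and 19.4 FPKM without; its difference of -0.02 became 0.12 with median-ratio scaling and 0.02 with quantile normalization, so it has no stable direction.

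The values of the core factors stayed low with TSA, with the same uncertainty from pseudogene copies for Pou5f1 and Nanog. Pou5f1 had 1.16 FPKM in TSA-treated and 2.18 FPKM in untreated late 2-cell embryos, a difference of -0.56. Nanog had 0.471 FPKM with TSA and 1.10 FPKM without it, for a difference of -0.51 that reached -1.07 with a pseudocount of 0.1. Sox2 had 0.0990 FPKM with TSA and was listed at 0 without, and it was not kept. Both Pou5f1 and Nanog remained below 0 with either rescaling.

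**Figure D3:**
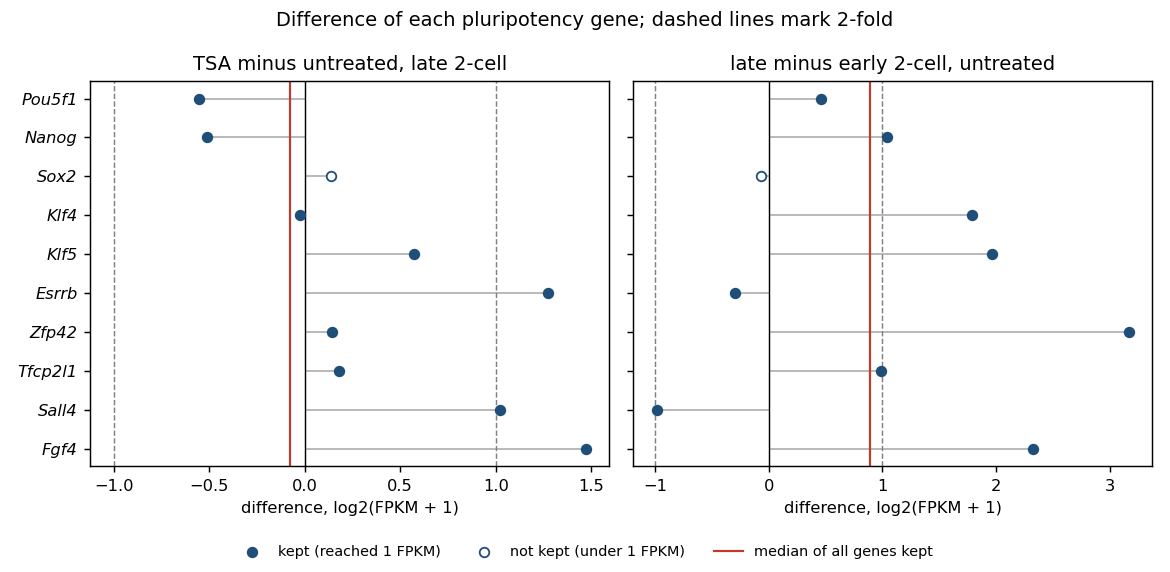
Difference of each pluripotency gene on the log2(FPKM + 1) scale, TSA-treated minus untreated late 2-cell on the left and late minus early 2-cell on the right; dashed lines mark 2-fold, the red line is the median of all genes kept, and open circles are genes not kept. With TSA, Fgf4, Esrrb and Sall4 pass 2-fold; between stages, Zfp42 lies farthest to the right at 3.17 and Sall4 farthest to the left at -0.98.

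**Figure D4:**
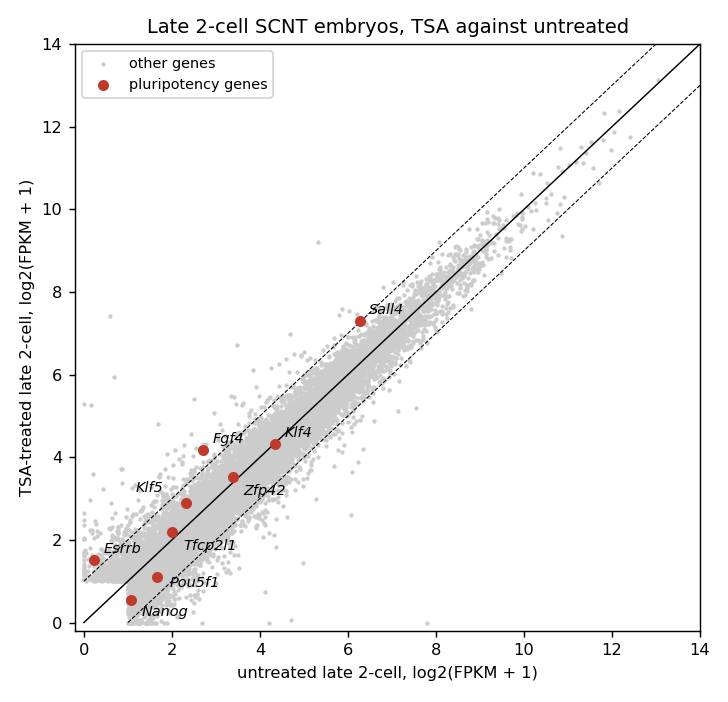
Each kept gene's level in TSA-treated (vertical axis) against untreated (horizontal axis) late 2-cell embryos, as log2(FPKM + 1); the solid line is equality, dashed lines are 2-fold, and red points are the 9 pluripotency genes kept. Fgf4, Esrrb and Sall4 lie on or above the upper dashed line, the last close to it with a difference of 1.02.

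TSA-treated late 2-cell embryos were also set against the earlier untreated stages. Against early 2-cell embryos 5 of 8 members kept were higher and 0 lower, beside 46.2% and 14.1% of all genes, and against 1-cell embryos 5 of 8 were higher and 0 lower, beside 44.6% and 16.6%. In both, the 5 genes were Fgf4, Zfp42, Klf5, Klf4 and Tfcp2l1. Fgf4, Zfp42 and Klf5, and against 1-cell embryos Tfcp2l1, were kept only through the TSA column and could not be counted lower. After quantile normalization Tfcp2l1 was no longer counted in either, at 0.26 against early 2-cell and 0.34 against 1-cell embryos, Klf4 fell short against early 2-cell embryos at 0.77, and Pou5f1 was counted lower than in 1-cell embryos at -1.43. With median-ratio scaling Tfcp2l1 was at 0.88 against early 2-cell embryos. Sall4 differed by 0.04 from early 2-cell and by -0.19 from 1-cell embryos as deposited, or by -0.80 and -0.94 relative to the median of all genes. These comparisons share the TSA-treated column with the one above.

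Markers of other cells were also compared between TSA-treated and untreated late 2-cell embryos. Of 24 cumulus and granulosa markers, 12 were kept and 5 of these were counted lower with TSA, 0 higher, beside 4.08% of all genes counted lower, with a median difference of -0.77; with either rescaling 4 were counted lower. The summed level of the 24 markers was 72.6 FPKM in TSA-treated and 154 FPKM in untreated late 2-cell embryos. At the 1-cell and early 2-cell stages it was 33.1 and 38.1 FPKM. The largest parts of the sum came from Anxa2, at 23.6 FPKM with TSA and 67.0 FPKM without, and Krt18, also a trophectoderm gene, at 21.3 FPKM with TSA and 33.8 FPKM without. Among defining granulosa genes, Inha was listed at 0 in both late 2-cell columns, Fshr was listed at 0 with TSA and had 1.64 FPKM without, and Nr5a1 had 0.0242 FPKM with TSA and 0.0150 FPKM without. Cyp19a1, the aromatase gene, had 1.703 FPKM with TSA and 0.498 FPKM without it, and the AMH receptor gene Amhr2 had 4.96 FPKM with TSA and 3.01 FPKM without it. The ovarian factor gene Foxl2 had 0.249 FPKM in TSA-treated and 0.194 FPKM in untreated late 2-cell embryos. Lgals1 had the largest difference of the list, at 1.28 FPKM with TSA and 9.06 FPKM without. Lhcgr, Amh and Star, all under 1 FPKM in both columns, were also lower with TSA. Of the 12 markers kept, 9 were below 0 and 3 above 0. The part of these genes in the differences of the pluripotency genes was not tested. Of 15 oocyte markers, 14 were kept, 0 were counted and the median was -0.33; all 14 were below 0 as deposited and 12 were with either rescaling. Of 13 markers of the 2-cell stage, 12 were kept, and 1 was counted higher with TSA, beside 2.51% of all genes. It was Usp17lc, at 42.7 FPKM with TSA and 17.8 FPKM without. Of 13 trophectoderm markers, 6 were kept, with 1 counted higher and 1 lower, beside 2.51% and 4.08% of all genes. Tfap2c was the higher gene, at 9.10 FPKM with TSA and 1.23 FPKM without. Krt8 was the lower gene, at 0.696 FPKM with TSA and 5.50 FPKM without. Krt8 is also on the cumulus and granulosa list and is among the genes counted lower there. Cdx2, which defines trophectoderm, was listed at 0 in both late 2-cell columns. Of 9 primitive endoderm markers, 4 were kept and 0 were counted, and Sox17 and Foxa2 were listed at 0 in all 4 columns.

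Further genes of the naive network, 30 in all, were followed from a list that, like the members, was chosen with earlier results known. With TSA 24 were kept, 0 were counted higher and 1 lower, beside 2.51% and 4.08% of all genes. The median difference was 0.09. The lower gene was Lefty1, an antagonist of Nodal, at 0.205 FPKM with TSA and 1.42 FPKM without, and with either rescaling 0 were counted lower. Gbx2, a homeobox gene, had 4.55 FPKM with TSA and 2.21 FPKM without it, for a difference of 0.79. Utf1, a chromatin protein of embryonic stem cells, had 13.8 FPKM with TSA and 8.23 FPKM without it, for a difference of 0.68. Between late and early 2-cell embryos, 15 of 23 were counted higher and 3 lower, beside 47.1% and 10.8% of all genes. The median was 1.44 beside 0.89 for all genes. After quantile normalization 7 were higher and 5 lower, beside 26.3% and 25.9% of all genes. Dppa4, which with Dppa2 controls early embryonic genes, had 217 FPKM late and 4.93 FPKM early, and Zfx, a zinc-finger factor, had 39.2 FPKM late and 0.810 FPKM early. Zfp281, a zinc-finger factor of stem cells, was lower in early 2-cell embryos, at 0.263 FPKM, than in 1-cell embryos, at 7.78 FPKM.

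For FGF signalling, the pathway that Fgf4 feeds, 22 genes apart from Fgf4 were listed and 16 were kept with TSA; 0 were counted higher or lower, and the median was -0.08 as deposited and 0.06 with median-ratio scaling. Differences among the largest of the list were those of Dusp4, a phosphatase that dampens the pathway, at 1.19 FPKM with TSA and 0.225 FPKM without, and Frs2, the docking adaptor of FGF receptors, at 13.6 FPKM with TSA and 23.5 FPKM without. Between late and early 2-cell embryos 7 of 16 were counted higher and 1 lower, beside 47.1% and 10.8% of all genes. After quantile normalization 4 were higher and 4 lower, beside 26.3% and 25.9% of all genes. Sos1, an exchange factor for RAS, had 15.2 FPKM late and 1.33 FPKM early, and the target genes Dusp6 and Etv5 had 5.97 and 10.1 FPKM late, against 0.510 and 1.56 FPKM early. Fgfr1, the receptor that answers FGF4 in the epiblast, had 9.15 FPKM in late 2-cell embryos and 1.44 FPKM in 1-cell embryos.

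Among 17 genes of LIF, WNT and BMP signalling, 15 were kept and 0 were counted with TSA; the median was -0.25. Axin2, a WNT target and inhibitor, had 7.97 FPKM with TSA and 16.5 FPKM without. Jak1, the kinase below the LIF receptor, had 12.4 FPKM with TSA and 21.7 FPKM without, and Id3, a BMP target, had 19.8 FPKM with TSA and 32.1 FPKM without. Between late and early 2-cell embryos 6 of 15 were counted higher and 2 lower, beside the same 47.1% and 10.8%. After quantile normalization 5 were higher and 6 lower, beside 26.3% and 25.9% of all genes. Lifr, the LIF receptor, had 19.7 FPKM late and 0.763 FPKM early. Of the genes of the primed or formative state, 6 were kept with TSA and 0 were counted, with a median of -0.35 beside -0.08 for all genes. Between late and early 2-cell embryos 1 of 7 was counted higher and 1 lower, beside 47.1% and 10.8% of all genes. The median was -0.36 beside 0.89 for all genes. After quantile normalization 0 were higher and 5 lower, beside 26.3% and 25.9% of all genes. Otx2 and Sox3 were listed at 0 in all 4 columns.

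The relatives of the members were described to show how far each family differed. Of 15 Klf genes apart from Klf4 and Klf5, 11 were kept. With TSA 0 were counted higher and 1 lower, beside 2.51% and 4.08% of all genes. Between the 2-cell stages 6 were counted higher and 1 lower, beside 47.1% and 10.8% of all genes. With TSA the lower gene was Klf8 at 1.61 FPKM, against 5.26 FPKM without, and Klf7 had 6.22 FPKM with TSA and 11.9 FPKM without. Klf9 had 11.7 FPKM late and 0.737 FPKM early, and Klf3 had 7.65 FPKM late and 0.218 FPKM early. Klf17, highest of the family in each column, had 422, 386 and 125 FPKM at the 1-cell, early 2-cell and late 2-cell stages; it was chosen after its values were seen. Of the 19 listed Sox genes apart from Sox2, 5 were kept with TSA and 0 were counted; Sox15 had the largest difference, with 31.3 FPKM with TSA and 17.0 FPKM without. Of 14 POU genes apart from Pou5f1, 5 were kept and 0 were counted with TSA; Pou4f1, highest of them in each column, had 129 FPKM with TSA and 98.4 FPKM without. Sall1 was listed at 0 in all 4 columns, and Sall2 was at most 1.05 FPKM, so Sall4 was the abundant member of its family. Of 9 relatives of Esrrb, Tfcp2l1 and Zfp42, 8 were kept and 0 were counted with TSA, while 5 were counted higher and 0 lower between the 2-cell stages, beside 47.1% and 10.8% of all genes. Grhl2, a grainyhead factor, had 36.0 FPKM late and 4.44 FPKM early, and Yy2, a relative of Zfp42, had 64.6 FPKM with TSA and 37.7 FPKM without.

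The genes nearest to each abundant member were found over the 4 columns by root mean square distance on the log2(FPKM + 1) scale. Each gene was centred on its own mean. The search covered 8561 genes that reached 5 FPKM, leaving out predicted genes (Gm and digits) and Rik, LOC, Mir and Snor names. Sall4 was nearest to Vav3, at a distance of 0.02, with 8.76, 7.44 and 3.13 FPKM at the 3 untreated stages and 7.36 FPKM with TSA, and next to Nr6a1 and Col4a3. Fgf4 was nearest to Apol7b, at 0.09, with 0.0769, 0.585 and 7.26 FPKM at the 3 stages and 21.8 FPKM with TSA, followed by Ppp2r3a and Ubald1. Zfp42 was nearest to Uap1l1, Snx10 and Platr17, Klf4 to Oxsr1, Erp29 and Gata4, and Klf5 to Rnf167, Usp50 and Yars. No member was among the 3 nearest genes of another. Among these 5 members, the smallest distance was 0.29, that of Klf4 and Klf5, and the largest was 1.96, that of Zfp42 and Sall4.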

How the data were processed

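Expression values were those the authors deposited on the log2(FPKM + 1) scale, per the file headers, with 1 column per group. Per the submitters' processing notes, the build was mm10 and the tools were StringTie 1.3.4, Cufflinks and HISAT2 2.1.0, beside deepTools 2.5.7, Bowtie2 2.3.4.3 and SAMtools 1.7, with no step named for each. How the 5 libraries of a group were combined, and the gene annotation, are not given in the sources used. Because FPKM is relative to the column's total, a gene's value depends on the other genes in its column. The 1-cell column is named by 13 h and was matched to the 1-cell group through the collection time. A further 2 columns, which no labelled RNA library matched, were not used. The 4 Dux-injected libraries and the 35 chromatin libraries and inputs were not analysed here. Sequencing depth is unknown, so no interval is given.

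Values were converted to FPKM and compared as differences of log2(FPKM + 1) in Python 3.11.15 with pandas 2.3.3 and numpy 2.4.6, a procedure tested on simulated data. With 1 value per group no test could be run. Genes were kept from 1 FPKM and counted at 2-fold. The members and the 14 other gene lists were chosen with earlier results of these data known. The text names all 10 members and, of each other list, the 3 genes with the largest absolute difference in a comparison that reached 1 FPKM, and the 3 genes of most similar pattern for members that reached 5 FPKM. Some of these genes are not reported here. A few genes of a list that define a cell type, lie at 0 or are the highest of a family are named beside these, chosen after their values were seen. Alternatives were pseudocounts of 0.1 and 5, no filter, a filter of 5 FPKM, median-ratio scaling, quantile normalization and counting at 1.5-fold. Gene positions, copies and promoters came from RefSeq for GRCm38.p6, the assembly that mm10 names; 10 members matched by symbol, and 8 had a promoter.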

Additional observations from a re-analysis of the deposited data

How the results depend on the processing

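No paired analysis was possible because each group has 1 column, and for the same reason no replicate could be left out. Of the members' differences under the alternatives counted at 2-fold, 256 stayed on the same side of it, 12 passed it and 19 no longer did. With TSA against untreated late 2-cell embryos, 1 of 9 members was lower with a pseudocount of 0.1, beside 8.42% of all genes. With a pseudocount of 5, 1 of 9 was higher, beside 0.698%. Between early 2-cell and 1-cell embryos, 2 of 9 were higher and 1 lower with a pseudocount of 0.1, beside 8.92% and 11.3% of all genes. After quantile normalization 1 of 9 was lower, beside 4.37%, and at 1.5-fold 1 of 9, beside 14.7%. Between late and early 2-cell embryos, 2 of 9 were higher with a pseudocount of 5, beside 27.3% of all genes. With the 5 FPKM filter 3 of 4 were higher, beside 49.4%, and after quantile normalization 3 of 9, beside 26.3%. Lower was 1 of 9 with median-ratio scaling, with quantile normalization and at 1.5-fold, beside 18.2%, 25.9% and 17.0%. Between late 2-cell and 1-cell embryos, 3 of 9 were higher and 1 lower with a pseudocount of 5, beside 26.4% and 8.71%. With the 5 FPKM filter, 3 of 4 were higher and 1 lower, beside 46.6% and 16.9%. After quantile normalization, 3 of 8 were higher with TSA than in early 2-cell embryos, beside 29.1%. Against 1-cell embryos 1 of 8 was lower with TSA, beside 29.4%. Pseudocounts act on low genes and filters remove members by construction; the cause was not tested for the rescalings.

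Counts over all genes moved more. With TSA, 320 were higher and 520 lower as reported, with ranges of 89 to 1198 and 92 to 1953. The early 2-cell against 1-cell counts were 376 and 720, with ranges of 90 to 1227 and 334 to 1912. The late against early 2-cell counts were 6128 and 1399, with ranges of 3419 to 7473 and 847 to 3374. The late 2-cell against 1-cell counts were 5883 and 1774, with ranges of 3429 to 7239 and 1133 to 3597. Higher genes were 38.1% of those counted with TSA, against 58.2% with median-ratio scaling and 52.7% with quantile normalization. That share was 34.3%, 48.7% and 48.2% for early 2-cell against 1-cell, 81.4%, 66.0% and 50.3% for late against early 2-cell, and 76.8%, 65.1% and 49.01% for late 2-cell against 1-cell embryos. For TSA-treated embryos against early 2-cell embryos it was 76.6%, 65.6% and 50.4%, and against 1-cell embryos 72.9%, 64.9% and 49.7%.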
